A study of Mus musculus with 36 samples.

Results

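The livers of tumour-bearing mice at Zeitgeber time (ZT) 0, when the lights came on, were compared with those taken at ZT 20, 4 h earlier in the dark phase. The arrays were chosen by their titles alone, 3 at TB ZT 0 and 3 at TB ZT 20, which makes 6 of the 36 arrays of the series. All 36 held RNA of whole liver from C57BL/6 mice kept in 12 h of light and 12 h of dark. TB mice carried p53fl/fl among their engineered alleles and had lung adenocarcinoma, and WT mice at ZT 0 and ZT 20 (3 arrays each) served for comparison. In such a line, Cre recombinase excises the floxed p53. The sources used here do not give the Cre, the way tumours were started, or the age and sex of the mice. Nor do the labels say of each array that it was another mouse, so a p-value here reflects only how far these samples scatter, and that scatter may be technical.

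The liver clock is a feedback loop. BMAL1 (gene Arntl) with CLOCK or NPAS2 switches on genes through E-boxes, among them those of the PER and CRY proteins, which then inhibit the activators. REV-ERB proteins (Nr1d1, Nr1d2) repress Arntl and Npas2, which ROR proteins activate, and the factors DBP, TEF and HLF drive a further set of genes through D-boxes that NFIL3 represses. Many liver genes of metabolism and detoxification follow this loop and the daily times of feeding.

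Levels are log2(intensity + 16) of 1 probe set per gene, so they serve to compare arrays and not genes. A difference is TB ZT 0 minus TB ZT 20 in log2 units, ± its standard error. The test was limma with Benjamini-Hochberg adjustment over all 22180 genes, and a gene was called at an adjusted p under 0.05. Hepatocyte markers were high on all 6 arrays, with Alb (albumin) at 13.55 to 13.65 and a summed intensity of the 14 hepatocyte genes between 83198 and 88012 in TB ZT 0 livers and between 83299 and 86452 in TB ZT 20 livers. Arrays of the same group correlated with each other at r = 0.959 to 0.988 over all genes.

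One array stood apart before any test. TB ZT 0 replicate 1 lay more than 2 log2 units above the mean of the other 2 TB ZT 0 arrays at 35 genes and as far below it at 49 genes, against at most 16 and 13 genes for any other of the 6 arrays. Over all genes, replicate 1 was the highest of the 6 arrays in 19.8% and the lowest in 18.4%. The list medians printed below, and the differences of many genes, are therefore given with and without that array. A second division ran through all groups. It was taken from the probe sets without a gene symbol, where the first component of the spread within groups held 28.6% of that spread. This component set 12 arrays, TB ZT 0 replicate 3 and TB ZT 20 replicate 2 among them, against the other 24.

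No gene passed the threshold in the comparison of TB ZT 0 with TB ZT 20 (limma, 0 of 22180 genes, 0%). Without adjustment, 704 genes (3.17%) had a p under 0.05. In 771 genes (3.48%) all 3 TB ZT 0 arrays lay above all 3 TB ZT 20 arrays, and in 490 genes (2.21%) all 3 lay below. The difference was positive in 54.6% of genes, and in 54.8% without TB ZT 0 replicate 1. The median difference of all genes was 0.015. An exact permutation test of 3 arrays against 3 cannot give a two-sided p below 0.1. The plot of difference against p places these genes.

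**Figure D1:**
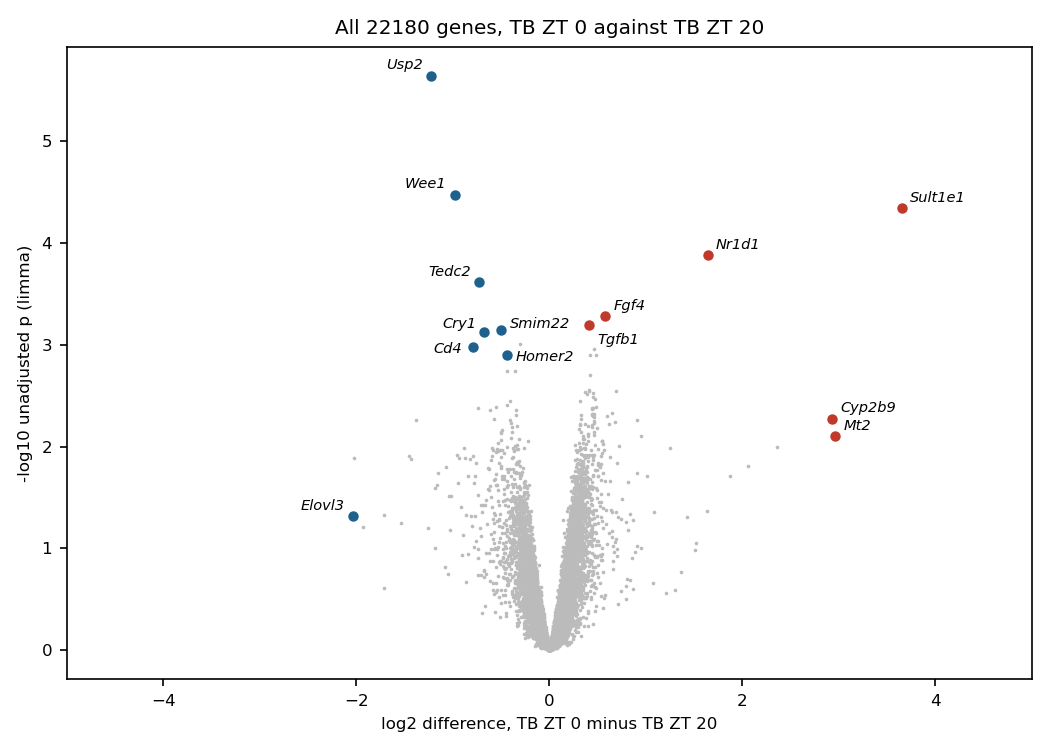
Each point is 1 of 22180 genes, with its log2 difference between TB ZT 0 and TB ZT 20 on the x axis and −log10 of its unadjusted limma p on the y axis; 14 genes are named, positive differences in red and negative ones in blue. Usp2 and Wee1 have the smallest p, while Mt2, Cyp2b9 and Elovl3 have wide differences at larger p.

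The step was also quiet beside the other 4 h steps of the TB day, which share arrays with it and with each other. By the same test, 9 genes were called between ZT 4 and ZT 0 (0.0406%), 85 between ZT 8 and ZT 4 (0.383%), 0 between ZT 12 and ZT 8 (0%), 42 between ZT 16 and ZT 12 (0.189%) and 7 between ZT 20 and ZT 16 (0.0316%). Usp2 had an adjusted p of 3.27e-13 between ZT 8 and ZT 4, when it was 3.82 higher at ZT 8. Dbp was 2.07 higher at ZT 4 than at ZT 0 in TB livers, with an adjusted p of 4.93e-05. Both genes thus passed the test at other hours of the TB day.

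Usp2, a ubiquitin-specific protease whose RNA follows the clock in liver, had the smallest p. It read 6.93, 6.30 and 6.72 in TB ZT 0 livers, against 7.93, 7.81 and 7.88 in TB ZT 20 livers. The groups did not overlap, and the TB ZT 20 arrays lay close together. The difference was −1.22 ± 0.21 (95% interval −1.65 to −0.80, a 2.33-fold lower level at ZT 0) with an adjusted p of 0.0508, just outside the threshold. With the array set as a block the adjusted p was 0.0350, and without TB ZT 0 replicate 1 the difference was −1.36 with an adjusted p of 0.0471. Usp2 also differed by −0.96 ± 0.21 between WT ZT 0 and WT ZT 20, and its 2 steps differed by −0.26 ± 0.30.

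Wee1, the kinase that holds back entry into mitosis and an E-box target of the clock, came next. Its levels were 5.79, 5.41 and 6.15 in TB ZT 0 livers, against 6.68, 6.45 and 7.17 in TB ZT 20 livers. All 3 TB ZT 0 arrays lay below all 3 TB ZT 20 arrays, and replicate 3 was the highest in both groups. The difference was −0.98 ± 0.20 (adjusted p = 0.337), the same −0.98 without TB ZT 0 replicate 1, and −1.06 ± 0.20 in WT. Homer2, a scaffold protein of synapses that is also found in other tissues, read 7.22, 7.07 and 6.93 in TB ZT 0 livers and 7.55, 7.45 and 7.53 in TB ZT 20 livers. It differed by −0.44 ± 0.12 in TB and by −0.54 ± 0.12 in WT, without overlap in either genotype.

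**Figure D2:**
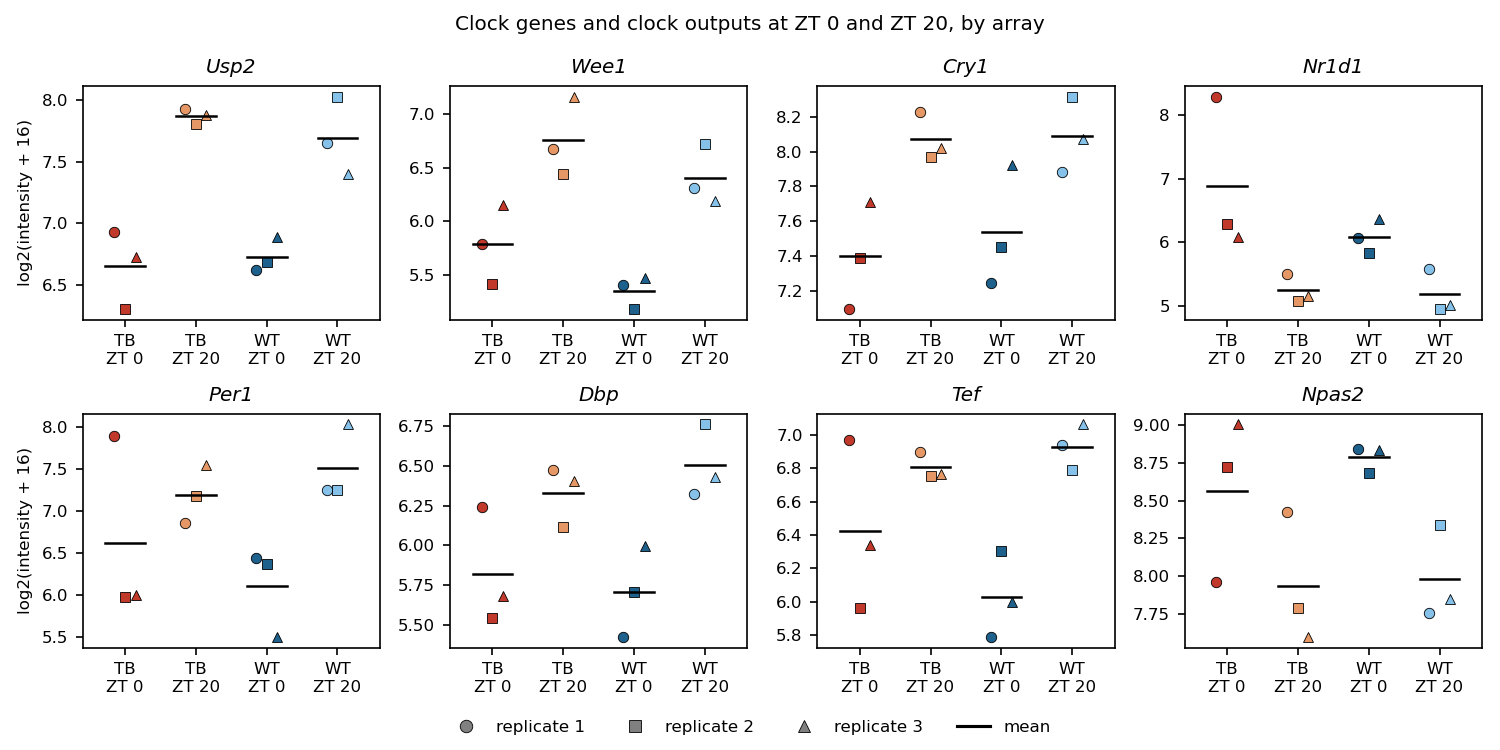
Level of 8 clock genes and outputs on each array, log2(intensity + 16), in TB ZT 0, TB ZT 20, WT ZT 0 and WT ZT 20 livers; symbols mark the replicate and bars the mean of 3. Usp2, Wee1 and Cry1 lie lower at ZT 0 without overlap in TB, whereas in Per1, Tef and Nr1d1 TB ZT 0 replicate 1 lies far above the other TB ZT 0 arrays.

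Among the repressors of the clock, Cry1 stood lowest in p. It had 7.10, 7.39 and 7.71 in TB ZT 0 livers and 8.23, 7.97 and 8.02 in TB ZT 20 livers. The groups did not overlap, with a difference of −0.67 ± 0.18 (unadjusted p = 0.000754), −0.52 without TB ZT 0 replicate 1 and −0.55 ± 0.18 in WT. Cry2, its paralog, also lay lower on all 3 TB ZT 0 arrays (7.08, 6.81 and 6.98, against 7.42, 7.09 and 7.10), though by only −0.25 ± 0.17. Per1 depended on 1 array: it read 7.89, 5.98 and 6.00 in TB ZT 0 livers, against 6.86, 7.18 and 7.55 in TB ZT 20 livers. Replicate 1 exceeded all TB ZT 20 arrays and the other 2 lay below all of them. Its difference was −0.57 ± 0.34 with all arrays and −1.21 without TB ZT 0 replicate 1, where the adjusted p was 0.964, and −1.41 ± 0.34 in WT. Per3 differed by −0.37 ± 0.21, with 5.90, 5.22 and 5.96 in TB ZT 0 livers and 5.95, 6.29 and 5.97 in TB ZT 20 livers, which overlap.

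Ciart, a repressor of CLOCK and BMAL1, read 6.01, 5.17 and 5.73 in TB ZT 0 livers and 5.72, 5.22 and 5.51 in TB ZT 20 livers. These groups overlapped, with a difference of 0.16 ± 0.24 that turned to −0.03 without TB ZT 0 replicate 1. In WT livers Ciart differed by −0.74 ± 0.24, and the difference between the 2 steps was 0.89 ± 0.34 (unadjusted p = 0.0126, adjusted p = 1.00). Over the 5 measured repressors the median difference was −0.37, with 4 negative and 0 called, and −0.47 without TB ZT 0 replicate 1, when all 5 were negative. Per2 is not analysed here.

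Some of these genes carry the E-box or the D-box, the motifs named above, close to their start, and stretches that hold them are printed. The stretch of Bhlhe41, another clock gene with the E-box in its window, is not printed. They come from RefSeq (GRCm38.p6) windows of 250 bases before to 50 after a start, which 16990 of the 22180 genes had, and 17 of the 18 genes of the 4 clock lists. The searches were for the E-box CACGTG, the D-box TTATGTAA or TTACGTAA, the RORE to which REV-ERB and ROR proteins bind, and the heat shock element, on both strands. The E-box was found in the windows of 5 of 17 clock genes (29.4%), against 9.19% of all genes with a window, the D-box in 1 of 17, against 1.16%, and the RORE in 1 of 17, against 0.241%. Matches are in capitals, and no match means only that these letters are not in the window.
Per1 (chr11:69098763-69098808, plus strand): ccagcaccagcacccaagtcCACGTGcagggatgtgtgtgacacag
Cry1 (chr10:85185089-85185134, minus strand): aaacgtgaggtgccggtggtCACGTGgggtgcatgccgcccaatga
Ciart (chr3:95882247-95882364, minus strand): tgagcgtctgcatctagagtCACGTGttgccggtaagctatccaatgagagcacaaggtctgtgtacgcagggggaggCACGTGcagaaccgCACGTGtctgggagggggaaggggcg
Tef, first start (chr15:81802526-81802571, plus strand): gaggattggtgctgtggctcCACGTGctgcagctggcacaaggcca
Tef, other start (chr15:81811256-81811301, plus strand): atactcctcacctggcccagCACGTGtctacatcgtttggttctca
Per3 (chr4:151044796-151044890, minus strand): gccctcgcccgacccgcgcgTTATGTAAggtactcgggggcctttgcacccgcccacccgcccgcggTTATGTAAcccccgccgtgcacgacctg
Homer2 (chr7:81707008-81707055, minus strand): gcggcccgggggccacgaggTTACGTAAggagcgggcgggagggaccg
Ciart thus holds the E-box 3 times within its stretch and Per3 the D-box a pair of times, while Homer2 holds the D-box once. Homer2 is among the 15 genes with the smallest p for a negative difference, named below, of which 11 had a window. The D-box was found in 1 of these 11 and the E-box in 1 (9.09%). Of the 15 named for a positive difference, 12 had a window, with 0 for either motif. A link of motif and direction was not tested.

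Dbp, Tef and Hlf had their lowest mean of the TB day at ZT 0. Dbp, the albumin D-box binding factor, read 6.24, 5.54 and 5.68 in TB ZT 0 livers and 6.48, 6.11 and 6.41 in TB ZT 20 livers. Only replicate 1 of TB ZT 0 reached into the TB ZT 20 range, and the difference of −0.51 ± 0.24 was −0.72 without it. Tef, of the same family, read 6.97, 5.96 and 6.34 in TB ZT 0 livers, against 6.90, 6.75 and 6.77 in TB ZT 20 livers. Replicate 1 was again the highest of all 6, and the difference was −0.38 ± 0.20 with it and −0.65 without it. Hlf, the third member, differed by −0.16 ± 0.14 and Nfil3, which competes for the same sites, by 0.34 ± 0.17. In WT livers the differences were −0.80 ± 0.24 for Dbp, −0.90 ± 0.20 for Tef, −0.36 ± 0.14 for Hlf and 0.54 ± 0.17 for Nfil3. The genes whose 6 TB group means followed those of Dbp most closely were Pck1 (r = 0.993), Rimklb (0.992), Mepce (0.991), Acaa1a (0.990) and F2 (0.990). Their TB differences ran from −0.07 (Rimklb) to −0.01 (Mepce), and this likeness is a description over 6 means.

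In the REV-ERB arm, Nr1d1 lay higher at ZT 0. It read 8.29, 6.29 and 6.09 in TB ZT 0 livers and 5.51, 5.08 and 5.16 in TB ZT 20 livers, with no overlap. The difference was 1.64 ± 0.37 (adjusted p = 0.733), 0.94 without TB ZT 0 replicate 1, and 0.90 ± 0.37 in WT. Nr1d2 read 8.31, 6.63 and 6.59 in TB ZT 0 livers, against 6.60, 6.92 and 6.81 in TB ZT 20 livers. There the sign rested on replicate 1, as the difference was 0.40 ± 0.28 with it and −0.17 without it. Bhlhe40, which encodes the repressor DEC1, differed by −0.48 ± 0.21, Bhlhe41 (DEC2) by −0.12 ± 0.32 and Rora by 0.02 ± 0.12.

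Arntl and Npas2 had their highest mean of the TB day at ZT 0. Arntl read 8.95, 8.74 and 9.18 in TB ZT 0 livers and 8.90, 8.88 and 8.71 in TB ZT 20 livers. These values overlapped, with a difference of 0.13 ± 0.19 (95% interval −0.26 to 0.52) and 0.02 ± 0.19 in WT. Npas2, the partner that can stand in for CLOCK, read 7.96, 8.73 and 9.01 in TB ZT 0 livers and 8.43, 7.79 and 7.60 in TB ZT 20 livers. Its difference was 0.63 ± 0.26, and 0.93 without TB ZT 0 replicate 1, which was the lowest of the 3 TB ZT 0 arrays and lay within the TB ZT 20 range. Clock differed by −0.13 ± 0.14. The profile plot sets these steps in the whole day.

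**Figure D3:**
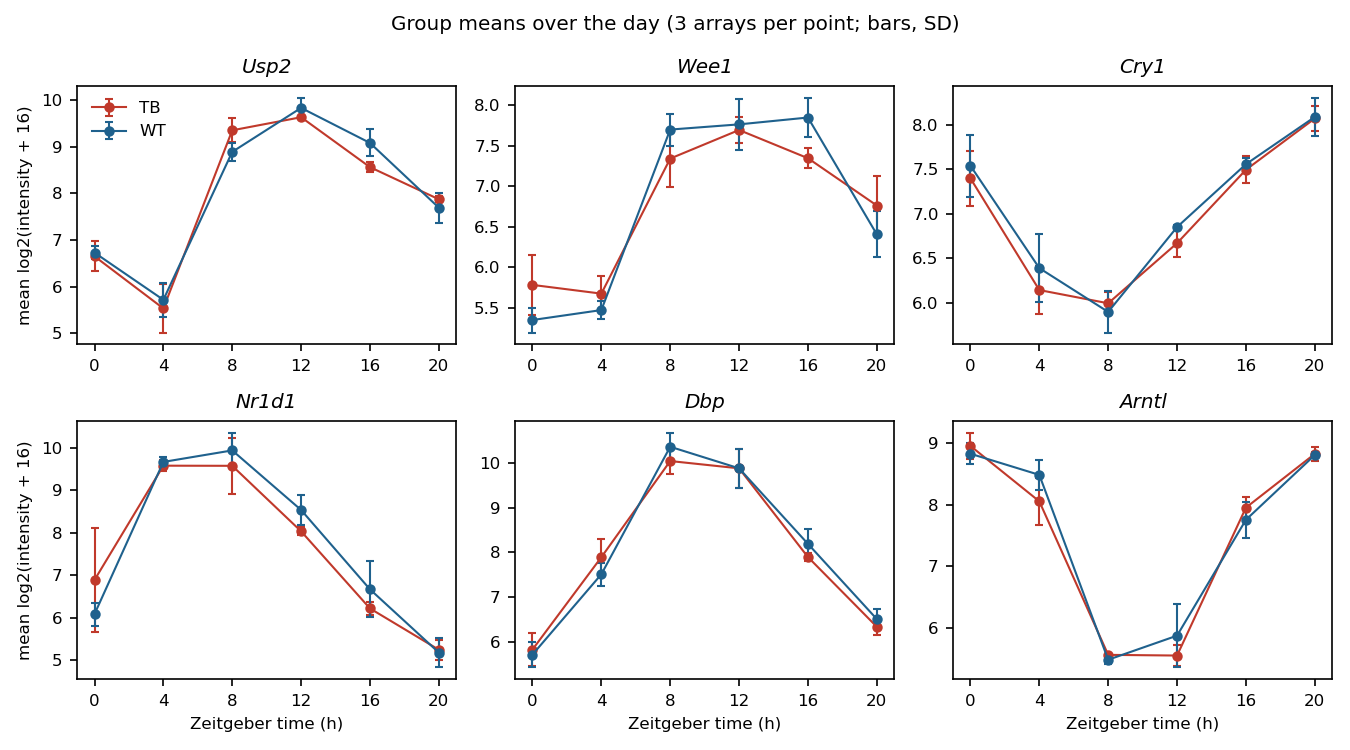
Mean log2(intensity + 16) of 6 genes at ZT 0 to ZT 20 (x axis, h) in TB (red) and WT (blue) livers, 3 arrays per point, bars ± SD. In TB livers Usp2 and Wee1 are lowest at ZT 4, Dbp at ZT 0 and Nr1d1 at ZT 20, and Cry1 is highest at ZT 20 and Arntl at ZT 0.

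The further 29 clock-driven outputs, Usp2 and Wee1 among them, had a median difference of −0.17, with 20 negative and 0 called, and −0.17 also without TB ZT 0 replicate 1. In this group 3 genes lay without overlap below TB ZT 20, and 0 above, beside 2.21% and 3.48% of all genes. Upp2, a uridine phosphorylase, read 9.94, 8.43 and 8.66 in TB ZT 0 livers and 9.43, 9.16 and 9.70 in TB ZT 20 livers. Without replicate 1, the highest of all 6, its difference was −0.88, against −0.42 with all arrays. Cyp7a1, the rate-limiting enzyme of bile acid synthesis, differed by −0.67 ± 0.31 with all arrays and by −0.89 without that array.

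Leaving out predicted gene models, the 15 smallest p among positive differences were those of Sult1e1, Nr1d1, Fgf4, Tgfb1, Tanc1, Slc1a4, Mtbp, Lgals9, Gpihbp1, Lce1i, Tpcn2, Col4a2, Ets1, Hsf5 and Gjb1. Apart from the first 2, their differences ran from 0.32 ± 0.10 (Gjb1, a gap junction protein of hepatocytes) to 0.69 ± 0.21 (Lce1i). Mtbp and Hsf5 averaged at most 29 intensity units in either group, and Lce1i 39 in TB ZT 0 livers and 17 in TB ZT 20 livers. At such levels the added 16 compresses differences. Tgfb1, the cytokine TGF-beta 1, read 7.44, 7.08 and 7.47 in TB ZT 0 livers and 6.90, 6.87 and 7.00 in TB ZT 20 livers. Its groups did not overlap, with a difference of 0.41 ± 0.11 and 0.36 without TB ZT 0 replicate 1, against 0.09 ± 0.11 in WT. Slc1a4, a transporter of neutral amino acids, differed by 0.49 ± 0.14 in TB and by 0.36 ± 0.14 in WT. Lgals9 (galectin-9) differed by 0.41 ± 0.12 in TB and by 0.28 ± 0.12 in WT.

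By the same choice, the 15 smallest p among negative differences were those of Usp2, Wee1, Tedc2, Smim22, Cry1, Cd4, Homer2, Hoxb13, B3galnt2, Krt40, Rad51ap1, Hao1, Lage3, Obp1b and Gpr161. Tedc2, a protein of centrioles, read 7.81, 8.56 and 8.24 in TB ZT 0 livers and 9.10, 8.80 and 8.89 in TB ZT 20 livers. Its difference was −0.72 ± 0.17, and −0.53 without TB ZT 0 replicate 1, the lowest array, against −0.05 ± 0.17 in WT. Cd4, the T helper cell coreceptor, read 4.60, 5.52 and 5.50 in TB ZT 0 livers and 6.34, 5.77 and 5.89 in TB ZT 20 livers, a difference of −0.79 ± 0.22 that was −0.49 without replicate 1. Hao1, the glycolate oxidase of liver, read 8.62, 9.78 and 9.85 in TB ZT 0 livers and 10.02, 10.12 and 9.96 in TB ZT 20 livers. Its difference of −0.61 ± 0.20 became −0.22 without replicate 1. Hoxb13, Obp1b and Gpr161 were at most 29 intensity units on average in either group, where the added 16 compresses differences. Smim22, Cd4, Krt40 and Rad51ap1 were also low. They averaged 30, 22, 21 and 21 units in TB ZT 0 livers and 48, 49, 34 and 37 units in TB ZT 20 livers, in that order.

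Sult1e1, the oestrogen sulfotransferase, had the largest difference of all genes, with 12.86, 6.05 and 9.58 in TB ZT 0 livers and 5.53, 6.09 and 5.93 in TB ZT 20 livers. Replicates 1 and 3 lay far above all other arrays and replicate 2 lay among the TB ZT 20 values. The difference was 3.65 ± 0.76 (adjusted p = 0.337), 1.97 without TB ZT 0 replicate 1, and −0.08 ± 0.76 in WT. Cyp2b9, a cytochrome P450 with more RNA in female liver, had the same 2 arrays high: 10.15, 6.82 and 10.01 in TB ZT 0 livers, against 5.52, 6.32 and 6.36 in TB ZT 20 livers. Its difference was 2.93 ± 0.97, and 2.35 without TB ZT 0 replicate 1.

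Genes that differ between male and female mouse liver, which growth hormone pulses control, set TB ZT 0 replicate 1 apart most. Elovl3, a fatty acid elongase, read 5.78, 12.42 and 12.59 in TB ZT 0 livers and 12.38, 12.36 and 12.15 in TB ZT 20 livers. The other 5 arrays lay close together. Hsd3b5 read 4.36, 10.41 and 10.22 in TB ZT 0 livers and 10.33, 10.30 and 10.13 in TB ZT 20 livers, and the organic anion transporter gene Slco1a1 read 5.52, 11.12 and 10.76, against 11.19, 11.21 and 11.06. Of the 21 male-biased genes, 19 had a negative difference, and replicate 1 was the lowest of the 6 arrays in 18. Their median difference was −0.86 with all arrays and −0.04 without TB ZT 0 replicate 1, with 0 called. Many of them belong to multigene families (Mup, Cyp4a12) whose copies a probe set may not tell apart.

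The 18 female-biased genes had a median difference of 0.27, and of 0.03 without that array, with 14 positive and 0 called. Slc22a26 read 12.02, 7.04 and 5.60 in TB ZT 0 livers and 5.96, 5.95 and 5.67 in TB ZT 20 livers. Xist, which is transcribed from the inactive X chromosome, read 5.19 to 5.55 over the 6 arrays, and the Y-linked Eif2s3y 7.52 to 8.17, Kdm5d 6.49 to 7.06 and Uty 7.17 to 7.46. Replicate 1 was within the range of the other 5 arrays for Xist, Eif2s3y and Kdm5d and level with the highest of them for Uty; these 4 genes, like Elovl3 and Hsd3b5, were chosen after their values were seen.

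**Figure D4:**
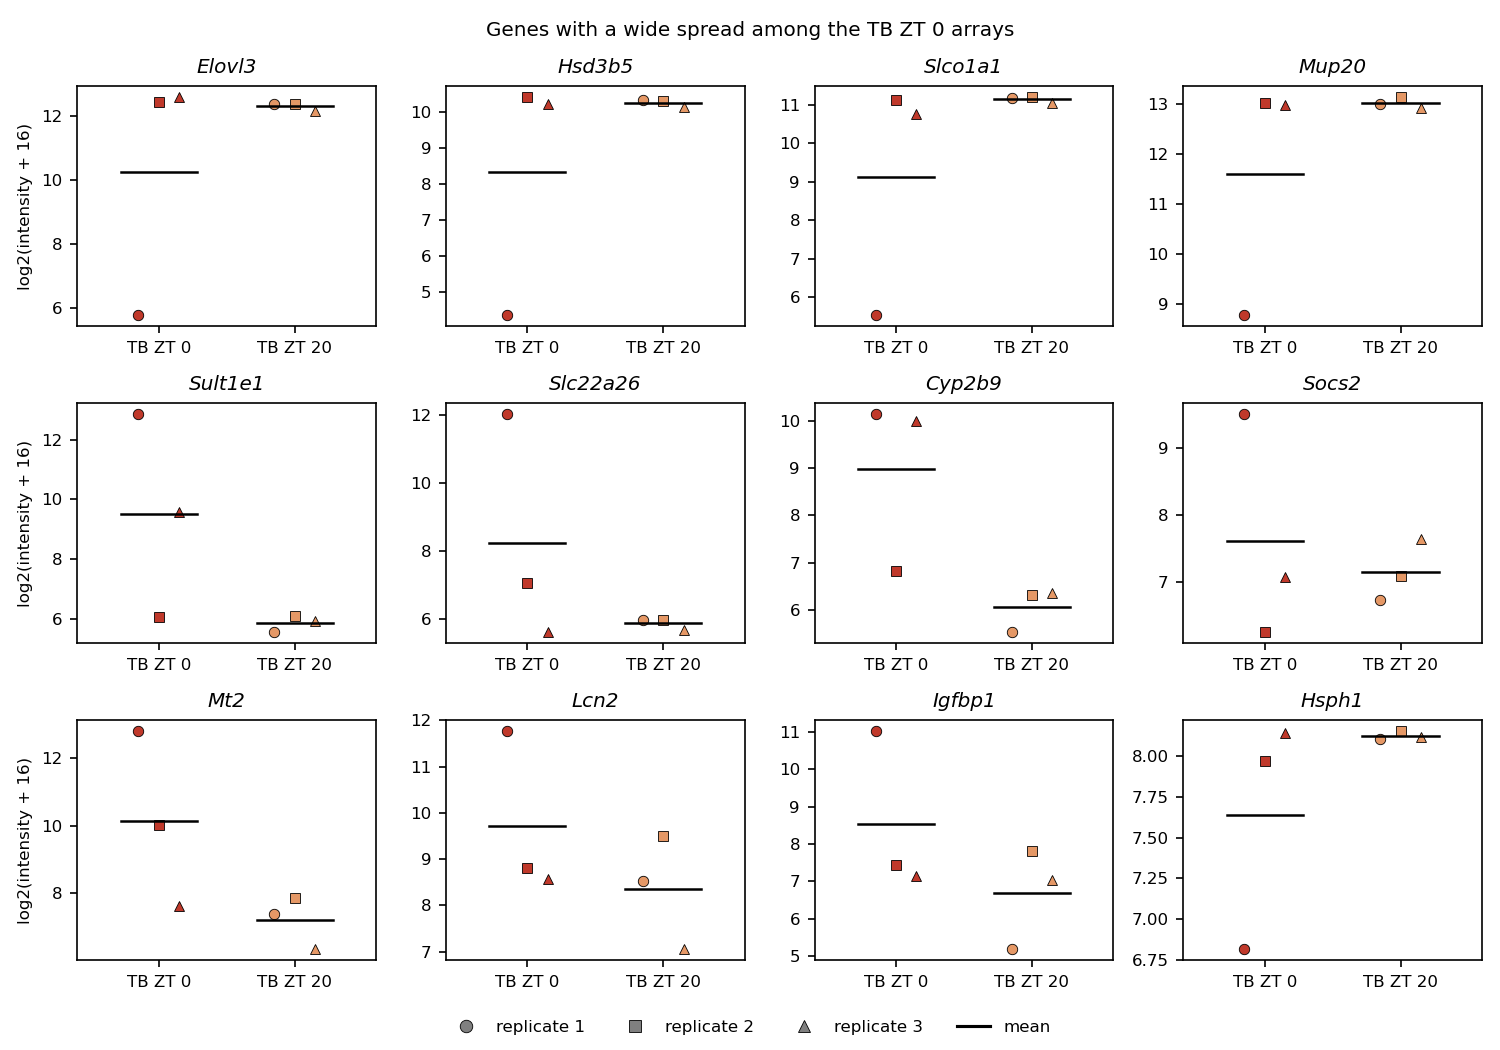
Level of 12 genes on each TB ZT 0 and TB ZT 20 array, log2(intensity + 16), with symbols for the replicate and bars for the mean of 3. The genes were picked after their values were seen, to show the spread among TB ZT 0 arrays. TB ZT 0 replicate 1 is at 5.78 for Elovl3 and 12.02 for Slc22a26, far from the other arrays.

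The same array was the highest for most acute phase genes. Of the 27 acute phase genes, 23 had a positive difference, with a median of 0.23 and 0 called, and 0.03 (18 positive) without replicate 1. Replicate 1 was the highest of the 6 arrays in 23 of them, beside 19.8% of all genes. Between WT ZT 0 and WT ZT 20 the median of the same list was 0.45, with 23 positive and 0 called. Lcn2 (lipocalin-2) read 11.77, 8.81 and 8.57 in TB ZT 0 livers and 8.52, 9.50 and 7.05 in TB ZT 20 livers. Apart from replicate 1, the groups overlapped, and the difference was 1.36 with it, 0.33 without it and 2.72 ± 0.97 in WT. Orm2, an orosomucoid, read 12.60, 9.42 and 9.68, against 8.89, 10.04 and 8.24, and its WT difference was 2.32 ± 0.90. The metallothionein Mt2, also a glucocorticoid target, read 12.80, 10.02 and 7.63 in TB ZT 0 livers and 7.39, 7.85 and 6.33 in TB ZT 20 livers. Its difference of 2.96 ± 1.04 was 1.63 without replicate 1, and it was 1.83 ± 1.04 in WT. The WT ZT 0 group also had 1 array, replicate 2, that was the highest for these genes. There Lcn2 read 10.26, 12.47 and 9.25, Orm2 10.83, 12.36 and 10.01, and Mt2 9.01, 11.49 and 6.92. Lcn2 and Orm2 lay above all WT ZT 20 arrays without overlap, while Mt2 overlapped. The WT differences and list median were not computed without that array.

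Glucocorticoid receptor targets had a median of 0.08 over 25 genes (14 positive), the IL-6, STAT3 and SOCS genes 0.09 over 25 (21 positive), immediate early genes 0.15 over 29 (23 positive) and interferon-stimulated genes −0.01 over 24 (11 positive), each with 0 called. Without TB ZT 0 replicate 1 these medians were 0.01, −0.02, 0.03 and 0.13, with 14, 8, 19 and 17 positive, in the same order. Of all genes 54.6% were positive, and 54.8% without that array. Igfbp1, a liver protein that binds IGF and that insulin represses, read 11.03, 7.44 and 7.15 in TB ZT 0 livers and 5.17, 7.82 and 7.03 in TB ZT 20 livers. Its difference was 1.87 ± 0.75, 0.63 without replicate 1, and 1.74 ± 0.75 in WT.

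Heat shock chaperones, which refold proteins, were listed with the cold-inducible RNA-binding proteins. Of 20 genes, 17 had a negative difference, 5 lay below all TB ZT 20 arrays and 0 above (beside 2.21% and 3.48% of all genes), with a median of −0.32 and 0 called, and −0.14 without TB ZT 0 replicate 1, the lowest of the 6 arrays in 16. In WT the median was −0.10. Hspd1, the mitochondrial chaperonin HSP60, read 9.52, 9.77 and 9.94 in TB ZT 0 livers and 10.08, 9.98 and 10.18 in TB ZT 20 livers, without overlap. Its difference was −0.34 ± 0.11, and −0.23 without replicate 1. Hspa1b, an inducible HSP70, read 5.63, 5.99 and 6.68 in TB ZT 0 livers, against 7.18, 7.14 and 6.59 in TB ZT 20 livers, and differed by −0.87 ± 0.33, by −0.63 without replicate 1 and by 0.48 in WT. The heat shock element was found in the windows of 4 of 17 genes of this list (23.5%), against 0.63% of all genes with a window. The windows of Hspd1 and Hspe1 overlap on opposite strands and hold the same matches, so that the same site is counted for both genes. In the window of Hspd1 the element was found in 2 overlapping matches.
Hspd1 (chr1:55088039-55088096, minus strand): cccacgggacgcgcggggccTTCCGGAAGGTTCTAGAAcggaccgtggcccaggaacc

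**Figure D5:**
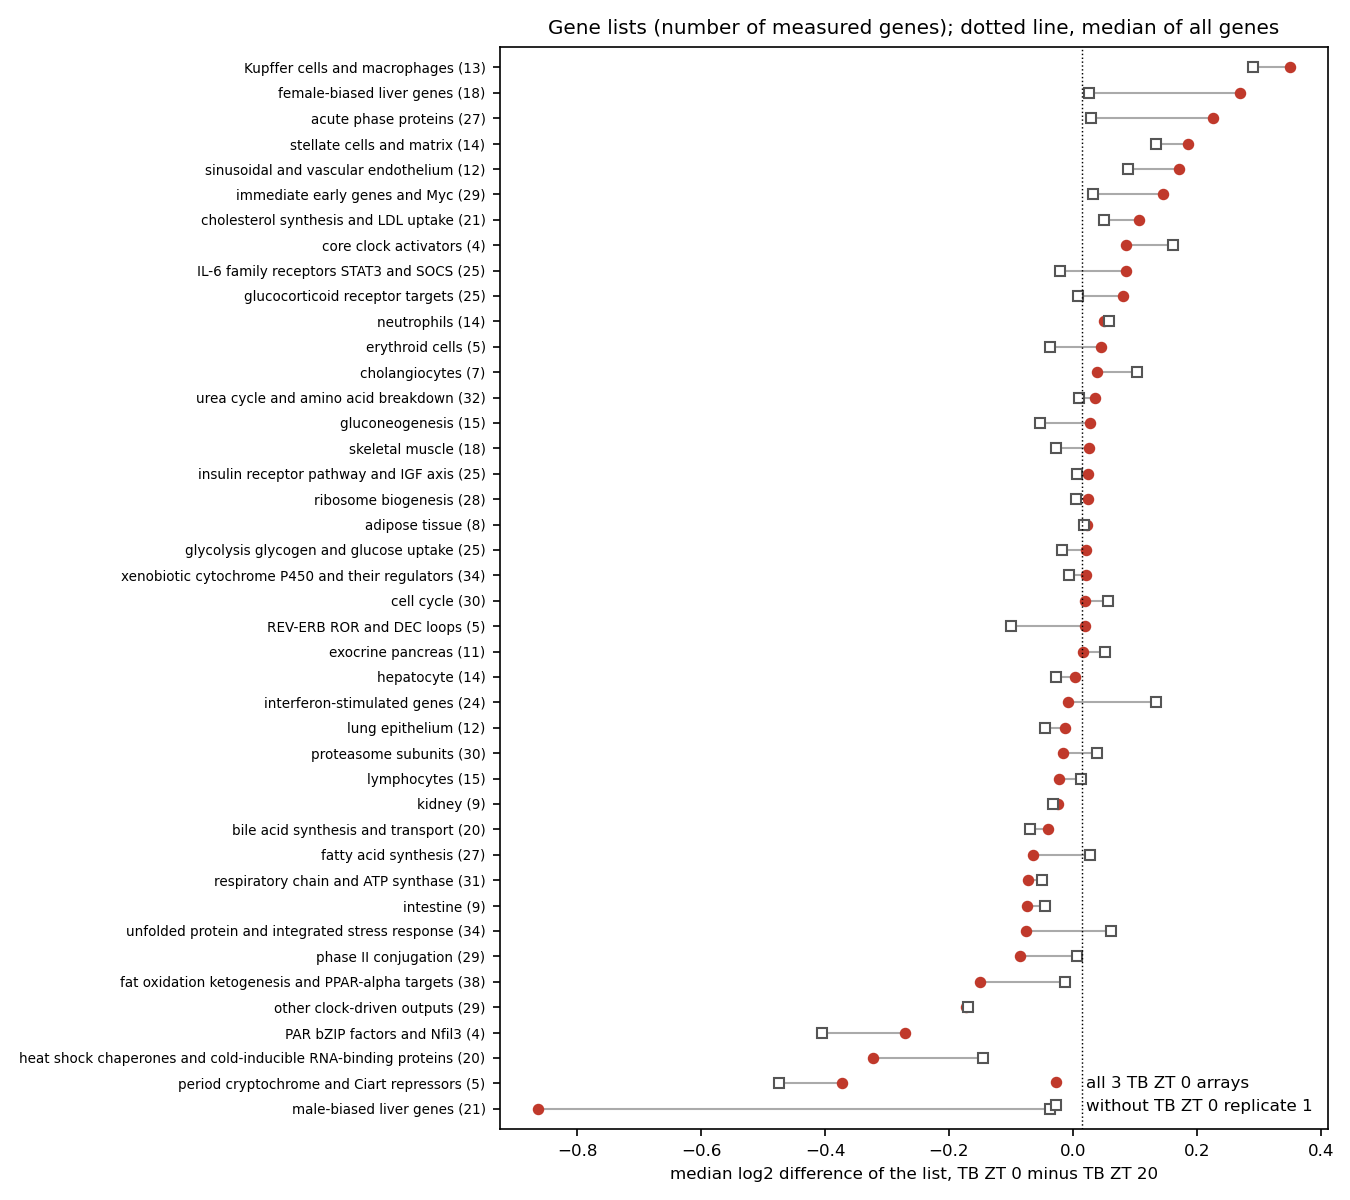
Median log2 difference (TB ZT 0 minus TB ZT 20) of 42 gene lists, with the number of measured genes in parentheses; red points use all 3 TB ZT 0 arrays, open squares leave out replicate 1, and the dotted line is the median of all genes. The male-biased list moves most, from −0.86 to −0.04, while the Kupffer cell list stays at 0.29 or above.

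The metabolic lists had 0 genes called. Fatty acid synthesis had a median of −0.06 over 27 genes (10 positive), and of 0.03 (15 positive) without TB ZT 0 replicate 1. Cholesterol synthesis had 0.11 over 21 genes (18 positive), and 0.05 (13 positive) without it. Gluconeogenesis had 0.03 over 15 genes (10 positive), and −0.05 (5 positive) without it. These tallies moved with 1 array, beside 54.6% of all genes that were positive. Bile acid synthesis and transport had −0.04 over 20 genes, glycolysis 0.02 over 25, the urea cycle list 0.04 over 32, insulin and IGF genes 0.03 over 25, xenobiotic cytochrome P450 genes 0.02 over 34 and phase II conjugation −0.09 over 29. Without that array these 6 medians were −0.07, −0.02, 0.01, 0.01, −0.01 and 0.01, in the same order. Fat oxidation and PPAR-alpha targets had −0.15 over 38 genes, with replicate 1 the lowest array in 21, and −0.01 without it. Fabp1, the liver fatty acid binding protein, showed this, with 8.62, 11.76 and 11.96 in TB ZT 0 livers and 11.87, 12.07 and 11.86 in TB ZT 20 livers. Ppara itself read 8.11, 8.80 and 8.72 in TB ZT 0 livers and 9.02, 8.97 and 9.06 in TB ZT 20 livers, a difference of −0.47 ± 0.18 without overlap, and −0.26 without replicate 1. Ebp, a sterol isomerase, was an example of the cholesterol list, with 0.45 ± 0.18.

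Of the growth and stress lists, ribosome biogenesis had a median of 0.02 (20 of 28 positive), the cell cycle 0.02 (17 of 30), the proteasome −0.02 (11 of 30), the respiratory chain −0.07 (5 of 31) and the unfolded protein response −0.07 (10 of 34), with 0 called in each. Without TB ZT 0 replicate 1 the medians were 0.0045 (15 of 28 positive), 0.06 (20 of 30), 0.04 (22 of 30), −0.05 (5 of 31) and 0.06 (25 of 34), so that the proteasome and the unfolded protein response turned in sign.

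Markers of other cells of the liver were compared too, and in whole liver fewer cells of a type and less RNA per cell cannot be told apart. All 13 Kupffer cell and macrophage genes had a positive difference, with 0 called and none without overlap, where 54.6% of all genes were positive. Their median was 0.35, and 0.29 without TB ZT 0 replicate 1. In the WT step all 13 were positive as well, with a median of 0.16. Their summed intensity was 2042 to 3624 in TB ZT 0 livers and 1749 to 2971 in TB ZT 20 livers. Marco, a scavenger receptor of macrophages, read 9.98, 7.71 and 7.23 in TB ZT 0 livers and 7.64, 7.25 and 7.19 in TB ZT 20 livers. Replicate 1 of TB ZT 0 lay far above the others for Marco, whose difference was 0.95 with it and 0.11 without it. C1qa, of complement C1, read 7.96, 7.57 and 8.15 in TB ZT 0 livers, against 7.35, 7.34 and 7.67. Stellate cell genes had 12 of 14 positive (median 0.19), endothelial genes 10 of 12 (0.17), neutrophil genes 9 of 14 (0.05), lymphocyte genes 6 of 15 (−0.02), cholangiocyte genes 5 of 7 (0.04) and erythroid genes 3 of 5 (0.04). Without TB ZT 0 replicate 1 these were 13 (0.13), 8 (0.09), 9 (0.06), 8 (0.01), 7 (0.10) and 2 (−0.04), in the same order. In the WT step they were 5 (−0.02), 10 (0.12), 10 (0.10), 10 (0.08), 3 (−0.02) and 1 (−0.01). The summed intensities were 4298 to 5417, against 3874 to 4106, for stellate cells, 3095 to 3607, against 2744 to 3485, for endothelium and 451 to 871, against 382 to 547, for neutrophils in TB ZT 0 and TB ZT 20 livers. Genes of lung epithelium, the tissue of the tumours, had a median of −0.01 (−0.05 without that array) over 12 genes, of which 3 were under 16 intensity units on all 6 arrays, with sums of 511 to 569 in TB ZT 0 livers and 547 to 563 in TB ZT 20 livers. The medians were 0.03 for skeletal muscle, 0.02 for exocrine pancreas, 0.02 for adipose tissue, −0.02 for kidney and −0.07 for intestine, with 0 called in each, and −0.03, 0.05, 0.02, −0.03 and −0.04 without that array. The part of these cell types in the other results was not tested.

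Set against the WT step, where 0 genes were called as well (0%) and 1169 had an unadjusted p under 0.05 (5.27%), the TB step differed at 0 genes (0%), with 627 (2.83%) at an unadjusted p under 0.05. Over all 22180 genes the 2 steps correlated at r = 0.163, a description across genes that are not independent, and at 0.149 without TB ZT 0 replicate 1. The smallest p for a more positive TB step was that of Fgf4, a growth factor, which read 7.37, 7.58 and 7.91 in TB ZT 0 livers and 7.24, 6.82 and 7.07 in TB ZT 20 livers, and 7.50, 6.99 and 6.96 in WT ZT 0 livers and 7.38, 7.51 and 7.39 in WT ZT 20 livers. The difference between the steps was 0.85 ± 0.21 (unadjusted p = 0.000333, adjusted p = 1.00). Naip5, a sensor of bacterial flagellin, had the smallest p on the other side, with −0.36 ± 0.16 in TB (−0.24 without TB ZT 0 replicate 1), 0.51 ± 0.16 in WT and −0.87 ± 0.22 between them. Slc46a3, a lysosomal transporter, had −0.54 ± 0.23 in TB and 0.61 ± 0.23 in WT, and the TB value was −0.21 without TB ZT 0 replicate 1.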

How the data were processed

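RNA of mouse liver was measured on 1-colour Affymetrix arrays. The deposited values are linear intensity units, 1 per probe set and array. For their making, the submitters' processing notes list Expression Console 1.1.1 (Affymetrix) and PLIER 2.0; the settings and any scaling across arrays are not stated there. The median value of an array was 36.3 to 43.3 units, 22.98% of values were under 16, and 0 pairs of arrays were identical. The precision is limited by the 3 arrays in a group and by the spread among arrays, which differs between genes.

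Of 41345 probe sets, 23521 had 1 gene symbol, 1814 several and 16010 none; symbols were updated through RefSeq where Entrez identifiers matched (99.2%). The probe set with the highest mean per gene left 22180 genes. After log2(intensity + 16), limma 3.58.1 in R 4.3.3 fitted 12 group means to all 36 arrays, with two-sided tests. The fit was tested on simulated data with independent noise, of the same spread in all groups for a given gene. That simulation had no array that stands apart and no array sets, so it does not cover these features of the data.

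Named genes were the 15 smallest p in each direction, all clock genes, the 2 smallest p of each list, the 8 smallest p each way for the difference between genotypes and the 5 genes most like Dbp; others were chosen after their values were seen. The comparison and the 42 lists were chosen with earlier results of these data known. Alternatives were the pseudocount, normalization, a filter on low values, averaged probe sets, the arrays fitted, blocks by replicate number and array set, array weights, the variance model and leaving out arrays. Some alleles and genes are not reported here.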

Additional observations from a re-analysis of the deposited data

How the results depend on the processing

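The count of genes called between TB ZT 0 and TB ZT 20 stayed at 0 or 1 in 21 alternatives, and was 1 in 10 of them, with 366 to 1734 genes at an unadjusted p under 0.05. The 1 gene was Usp2 with a pseudocount of 64, quantile normalization, median centring, genes of low intensity left out, the array set as a block, and the trended and robust variance. It was also Usp2 without TB ZT 0 replicate 1 (with and without that block) and without WT ZT 12 replicate 3 and Sult1e1 without TB ZT 0 replicate 2; leaving out 1 array gave counts of 0 to 1. Usp2 kept a negative difference in all 21, from −1.38 to −0.92, with adjusted p from 0.0198 to 0.883. The WT count was 3 with array weights and 1 without WT ZT 12 replicate 3 (range 0 to 1 when 1 array was left out), and the difference between genotypes was 1 without TB ZT 0 replicate 2 (range 0 to 1), with Sult1e1. In these cases the cause was not tested. The settings without TB ZT 0 replicate 1 beside the array set block, and the larger set alone, were chosen after seeing the data.

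The labels do not say that replicate numbers pair the samples, and they were not used as pairs. Same-numbered arrays correlated in their deviations from the group means at 0.123, −0.214 and −0.185. The highest value, 0.303, was that of TB ZT 0 replicate 3 with TB ZT 20 replicate 2, both in the smaller array set. Deviations from a mean of 3 depend on each other and on the array set, so these values cannot exclude a pairing. With the replicate block 0 genes were called, and Usp2 had an adjusted p of 0.0587.

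Of 119 named genes, 16 changed sign in some setting, 37 times in all, and all had small differences or wide spread. With the array set as a block and without TB ZT 0 replicate 1, the difference was 0.0420 for Acaa1a, −0.0421 for Casq1, −0.0256 for Ciart, −0.202 for Nr1d2, −0.00560 for Ppargc1a, −0.0594 for Rora and 0.000219 for Serpina1a. In the larger array set alone it was −0.0199 for Ciart, 0.0566 for F2, 0.479 for Pck1 and 0.0136 for Rhag. Array weights gave 0.0594 for Pck1, and median centring gave −0.00372 for Rora. Leaving out 1 array gave ranges of −0.222 to 0.0670 for Acaa1a, −0.0567 to 0.192 for Arntl2, −0.260 to 0.000857 for Bhlhe41, −0.00868 to 0.531 for Casq1, −0.0324 to 0.389 for Ciart, −0.112 to 0.0370 for F2, −0.0172 to 0.369 for Lep and −0.113 to 0.139 for Mepce. The ranges were −0.166 to 0.689 for Nr1d2, −0.687 to 0.521 for Pck1, −0.247 to 0.0102 for Rhag, −0.252 to 0.153 for Rimklb, −0.0385 to 0.0627 for Rora, −0.00181 to 0.127 for Ryr1 and −0.167 to 0.00635 for Serpina1a. List medians moved by less than the spread between replicates in 850 cases and by more in 32.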

Other observations

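TB ZT 0 replicate 1 also differed from the other TB ZT 0 arrays at some genes of growth hormone and leptin signalling and at Asns. All were chosen after their values were seen, and some spread widely in WT groups too. Socs2, which inhibits growth hormone signalling, read 9.51, 6.25 and 7.08 in TB ZT 0 livers and 6.73, 7.09 and 7.65 in TB ZT 20 livers. It read 6.58, 6.07 and 6.52 in WT ZT 0 livers but 7.81, 5.29 and 8.02 in WT ZT 20 livers. Bcl6, a repressor that opposes STAT5, read 5.61, 8.90 and 8.09 in TB ZT 0 livers and 8.54, 7.64 and 8.50 in TB ZT 20 livers. The leptin receptor gene Lepr read 7.93, 4.92 and 4.84 in TB ZT 0 livers, against 4.98, 4.98 and 5.07 in TB ZT 20 livers. Asns, the asparagine synthetase, read 8.69, 5.75 and 5.75 in TB ZT 0 livers, against 7.15, 6.45 and 4.93 in TB ZT 20 livers. It varied among WT ZT 20 livers as well (6.54, 5.17 and 7.09). Igf1 (11.14 to 11.60), Ghr (10.10 to 10.92) and Stat5b (8.42 to 8.85) spanned less than 1 log2 unit over the 6 arrays, with replicate 1 the highest for Igf1 and the lowest for Ghr.

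The 16010 probe sets without a gene symbol, fitted alone with limma, gave 0 calls between TB ZT 0 and TB ZT 20, and 481 (3.00%) at an unadjusted p under 0.05.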
